A study of Homo sapiens with 6 samples.

Results

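The transcripts described here encode the proteins that build, sulfate, edit and carry heparan sulfate. The set holds 41 genes, chosen by name from the pathway and matched to the gene symbols of a table of 24294 loci. Each matched 1 entry that lists no other symbol. The loci of GLCE, HS3ST3B1, GPC1 and HSPG2 overlap other entries. They were measured by RNA sequencing in MCF12A, an immortalized human mammary epithelial line that the labels call a breast cancer line. The 2 groups, of 3 samples each, were cells stably carrying an empty vector (EV) and cells stably over-expressing miR-424, all grown for 48 hours. No source used here gives the promoter of the construct, the number of clones or the origin of the 3 samples of a group. Every p-value below therefore measures the spread among these 6 samples alone, and that spread may be technical. The study's title places miR-424 downstream of the transcription factor TWIST1 in an intermediate epithelial-to-mesenchymal transition, and the comparison asks which transcripts differ when the microRNA is raised.

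Heparan sulfate is a long, sulfated sugar chain attached to core proteins at the cell surface and in the matrix. A short linkage sugar is first built on the core protein, the chain is polymerized, and a series of enzymes then removes acetyl groups, adds sulfate and flips one sugar into its epimer; sulfatases outside the cell later trim the pattern. The pattern of sulfate decides which growth factors, chemokines and matrix proteins bind, and in epithelium the chains on syndecans, glypicans, perlecan and agrin take part in adhesion, growth factor signalling and basement membrane structure.

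A microRNA lowers targets mainly through its seed, bases 2 to 8, which pairs with sites in the 3' UTR. Mature miR-424-5p is shown with its seed in capitals (RefSeq, GRCh38.p14, chromosome X, 134546680 to 134546701, minus strand), followed by 3 sites of heparan sulfate genes with the paired letters, and the adenosine after them where present, in capitals (transcript strand, 5′ to 3′, GENCODE 29, GRCh38). EXT2 and GPC1 are shown because they fell in miR-424 cells. HSPG2 is shown because it holds, like EXT2, the full match plus adenosine, although it did not pass the threshold given below. HS3ST3B1 also holds that full match and is not shown. It was higher in each miR-424 library (log2 change 0.09) and did not pass either.
hsa-miR-424-5p: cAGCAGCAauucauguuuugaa
EXT2: gctaacgttaaaTGCTGCTAtacaactgct
GPC1: gaggccgcttagTGCTGCTttgcttttca
HSPG2: gatgccacgcttTGCTGCTAccgccctggg

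The 3' UTR searched was the longest one annotated for each gene, on the transcript strand only, for TGCTGCTA, TGCTGCT without the final A, and GCTGCTA without the first T, each match being counted under the longest of these motifs. At least 1 of the 3 motifs was present in 14 of the 29 tested genes of the set (48.3%) and in 32.9% of 10707 tested loci with an annotated 3' UTR; the set's 3' UTRs had a median length of 1976 nt against 1642 nt. TGCTGCTA was present in 3 of the 29 (10.3%) and in 5.32% of all. Of these 3, EXT2 and HSPG2 had a negative and HS3ST3B1 a positive log2 change. The EXT2 motif lay at bases 1069 to 1076 of a 3' UTR of 1142 nt and in 2 of 4 annotated coding transcripts of the gene. In GPC1 the motif lay at bases 1371 to 1377 of 1788, and in HSPG2 at bases 115 to 122 of 1071, each in 1 of 2 annotated coding transcripts of its gene. None of the motifs was in the longest 3' UTR of SULF1, SULF2, SDC1 or SDC2. The 14 genes with a motif had a median log2 change of -0.07 and 9 negative values, and the 15 without one a median of 0.01 and 7 negative values. Over all tested loci with an annotated 3' UTR, the median was -0.07 with TGCTGCTA and -0.04 with none of the motifs. By the threshold given below, 11.6% of the loci with TGCTGCTA and 5.37% of those with none fell. These values are for TGCTGCTA only, whereas the 14 genes hold any of the 3 motifs, so the 2 splits are not alike. A match of letters is a description and does not show that the microRNA binds there.

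Expression is given in FPKM, fragments scaled to transcript length and library, so levels can be compared between genes. Changes are differences of log2(FPKM + 1), miR-424 minus EV, which understate the change of low genes. A gene is said to rise or fall where limma, fitted over all 11574 loci whose mean reached 1 FPKM, gave a Benjamini-Hochberg adjusted p under 0.05. FPKM summed to between 409776 and 424564 per library, and no source used here gives read numbers. The host locus of miR-424 was at 0.989, 1.27 and 1.23 FPKM in EV cells and at 107, 106 and 224 FPKM in miR-424 cells, which separates the groups as labelled. Among markers of the line, the epithelial keratin gene KRT8 (164 ± 4.27 FPKM in EV cells, SD, n = 3) was high, whereas E-cadherin (CDH1, 0.0228 ± 0.0142) was near 0. The other epithelial markers were KRT18 at 88.1 ± 2.99, EPCAM at 2.60 ± 0.0908 and KRT19 at 0.119 ± 0.0406 FPKM in EV cells. The mesenchymal markers VIM (970 ± 14.2 FPKM), FN1 (265 ± 2.35) and CDH2 (27.4 ± 0.807) were also expressed in EV cells, VIM and FN1 above KRT8. Endothelial, leukocyte and fibroblast markers were mostly low, with a mean under 1 FPKM for 5 of 5, 4 of 5 and 4 of 6 genes. The exceptions in EV cells were DCN at 120 ± 4.13, CD68 at 55.9 ± 1.53 and COL1A1 at 39.0 ± 1.49 FPKM. miR-424 replicate 3 stood apart from replicates 1 and 2. Over all tested loci its median absolute log2 difference from them was 0.142 and 0.152, against 0.0408 between those replicates. Its deviation from the EV mean went from -0.21 for loci under 40% GC to -0.05 over 60% GC, whereas replicates 1 and 2 went from 0.06 and 0.08 to -0.09 and -0.12.

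Of the 41 genes, 29 reached a mean of 1 FPKM and were tested. SULF1 rose, and SULF2, SDC1, GPC1 and EXT2 fell, while 24 did not pass. Over all tested loci 1.24% rose and 6.32% fell (7.56% in all), against 1 rise and 4 falls among the 29. The median log2 change of the 29 was -0.02 and that of all loci -0.05, and the median absolute changes were 0.12 and 0.08. The 3 miR-424 libraries lay above all EV libraries for 5 of the 29 genes and below them for 11, so 16 of 29 did not overlap, where 6.59% and 26.9% of all tested loci (33.5% in all) did so. The members were chosen for their place in the pathway, with earlier results of these data known, and these counts are descriptions. With median-of-ratios scaling of the libraries 2 of the 29 rose and 5 fell, where 308 loci rose and 495 fell in all, against 144 and 731 without it. When miR-424 replicate 3 was left out, 9 of the 29 rose and 10 fell, against 14.9% and 22.2% of all tested loci. With the GC trend of each library also removed there were 12 and 9, against 11.2% and 18.9%. SULF1, SULF2, SDC1, GPC1 and EXT2 kept their call in both settings.

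**Figure D1:**
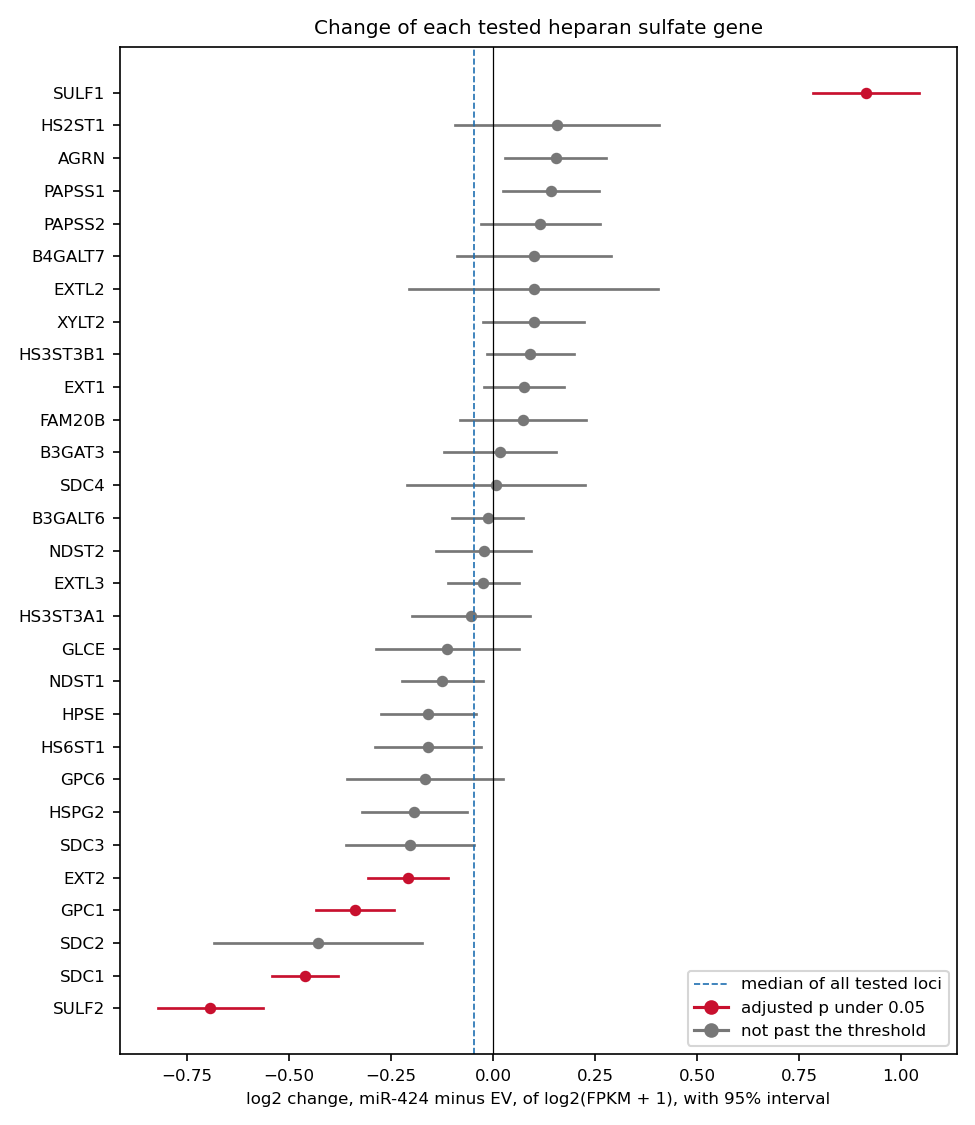
Log2 change (miR-424 minus EV, of log2(FPKM + 1)) of the 29 tested genes on the x axis, one gene per row, with 95% intervals from limma; red marks an adjusted p under 0.05 and the dashed line is the median of all tested loci. SULF1 stands alone on the right at 0.91, and SULF2 (-0.69), SDC1 (-0.46), GPC1 (-0.34) and EXT2 (-0.21) are the red genes on the left.

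The 12 genes under 1 FPKM were XYLT1, EXTL1, NDST3, NDST4, HS6ST2, HS6ST3, HS3ST1, HS3ST2, GPC2, GPC3, GPC4 and GPC5. The highest of them, GPC2, had a mean of 0.448 FPKM, and HS3ST1 had 0.228 FPKM. The level of the tested genes in EV cells ran from 2.86 FPKM for SULF1 to 256 FPKM for SDC4. The highest 5 were all core proteins, SDC4, SDC1, AGRN, GPC1 and HSPG2, and EXT1 was the highest of the enzymes at 25.6 ± 0.611 FPKM (SD, n = 3). EXT2, at 25.3 ± 0.261 FPKM, did not differ from it beyond that spread.

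**Figure D2:**
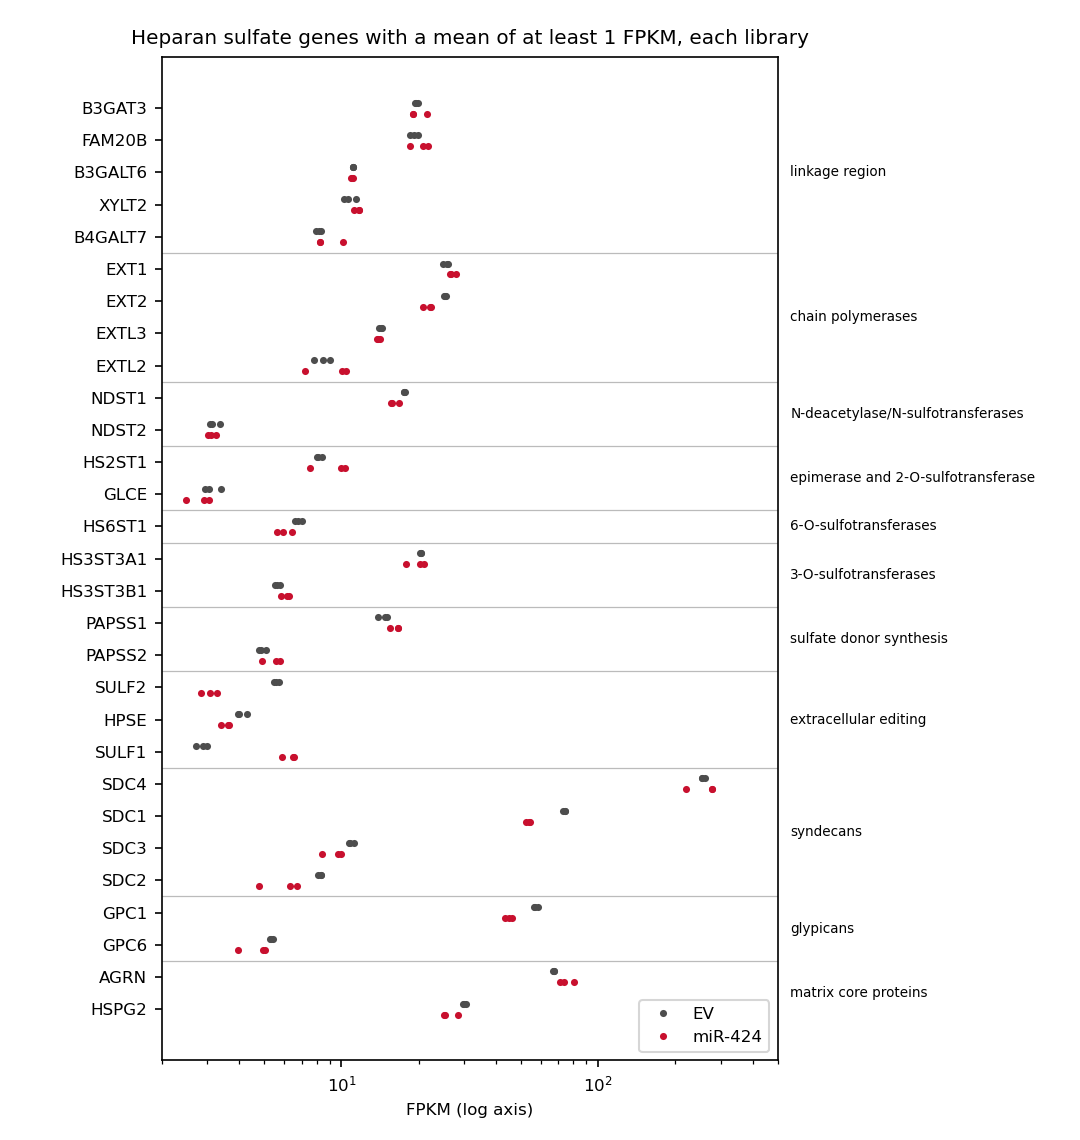
FPKM of each library on a log x axis for the 29 tested genes, one gene per row, grouped by role; grey points are the 3 EV and red points the 3 miR-424 libraries. The core proteins reach from 5.32 FPKM (GPC6, EV mean) to 256 FPKM (SDC4), and most enzymes lie between 3 and 26 FPKM with the groups close together.

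The largest differences were in SULF1 and SULF2, whose enzymes act outside the cell. SULF1 and SULF2 encode sulfatases that remove 6-O-sulfate from finished chains, and HPSE encodes heparanase, which cuts the chains. SULF1 (chromosome 8, 70378859 to 70573147, hg19) was at 2.98, 2.89 and 2.72 FPKM in EV cells and at 6.51, 6.47 and 5.88 FPKM in miR-424 cells. The lowest miR-424 library was thus far above the highest EV library, and the mean was 2.20 times that of EV. On the log2 scale it rose by 0.91 ± 0.05 (SE; limma with Benjamini-Hochberg adjustment, adjusted p = 0.00115).

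SULF2 (chromosome 20, 46286150 to 46415360) went the other way. It was at 5.69, 5.44 and 5.55 FPKM in EV cells and at 3.29, 3.06 and 2.84 FPKM in miR-424 cells, again with no overlap, and fell by 44.9% of the EV mean (log2 change -0.69 ± 0.05, SE; limma, adjusted p = 0.00211). Of all tested loci 6 had a larger positive change than SULF1, and SULF2 ranked 32 among the negative ones. Both kept their call in each of the 15 alternative settings that tested them, among them leaving out any 1 library. In EV cells SULF2 was the more abundant of the pair and in miR-424 cells SULF1 was. The ratio of SULF1 to SULF2 was 0.524, 0.531 and 0.490 in EV and 1.98, 2.11 and 2.07 in miR-424 libraries. A ratio within a library does not depend on scaling between libraries. It can depend on GC content, which was 42.5% for SULF1 and 52.8% for SULF2. With the GC trend removed the log2 changes of SULF1 and SULF2 were 0.89 and -0.69. The sum of SULF1 and SULF2 went from 8.43 ± 0.22 to 9.35 ± 0.56 FPKM (SD, n = 3), so the exchange was larger than the change in total sulfatase transcript. An exact permutation test of 3 against 3 values cannot go below p = 0.1 (two-sided), so ratios and sums are given without a test.

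HPSE did not pass. Its values were 3.96, 4.29 and 3.98 FPKM in EV and 3.64, 3.60 and 3.41 FPKM in miR-424 cells, the groups not overlapping (log2 change -0.16, 95% interval -0.27 to -0.04; limma, adjusted p = 0.106). Without miR-424 replicate 3 it was lower with an adjusted p of 0.0448 (limma), and with the GC trend removed 0.0434.

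**Figure D3:**
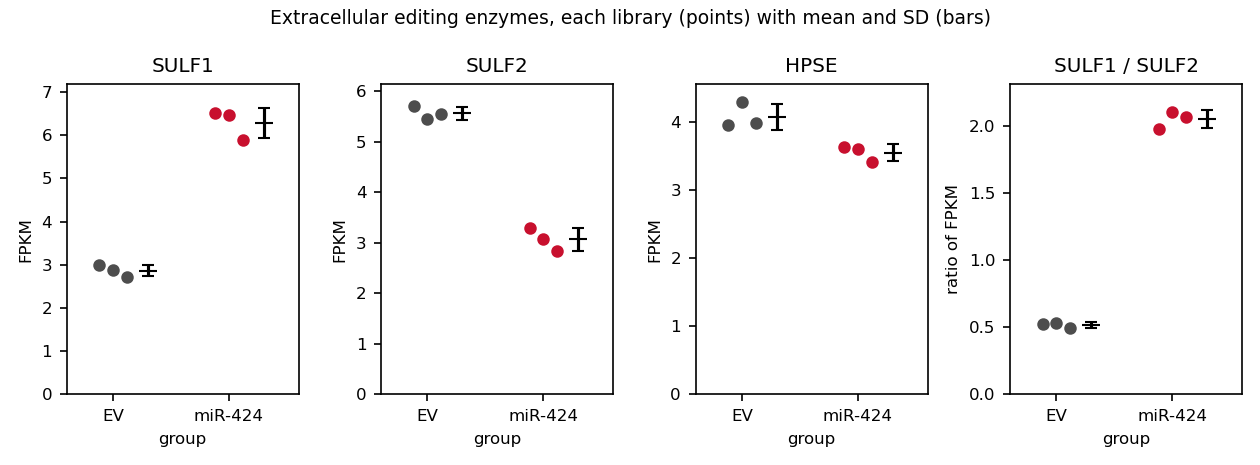
FPKM of SULF1, SULF2 and HPSE and the ratio of SULF1 to SULF2 on y axes that start at 0, for the EV (grey) and miR-424 (red) libraries, with mean and SD (n = 3) as black bars. The SULF1 and SULF2 groups are far apart in opposite directions, and the ratio lies between 0.490 and 0.531 in EV and between 1.98 and 2.11 in miR-424 cells.

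Among core proteins, one syndecan and one glypican fell. Syndecans are transmembrane proteins whose chains act as co-receptors, and SDC1, syndecan 1, is the characteristic epithelial member. SDC1 (chromosome 2, 20400558 to 20425194) was at 74.3, 72.8 and 74.5 FPKM with EV and at 54.0, 52.6 and 53.5 FPKM in miR-424 cells. The groups were much farther apart than the libraries within either of them, and SDC1 fell by 27.7% of the EV mean (log2 change -0.46 ± 0.03, SE; limma, adjusted p = 0.00197). The call held in all 16 alternative settings, and miR-424 replicate 3 did not stand apart from the others for this gene.

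SDC4, syndecan 4, which localizes to focal adhesions, was the most abundant gene of the set. It was at 254, 260 and 255 FPKM in EV cells and at 279, 279 and 220 FPKM in miR-424 cells, so the miR-424 libraries lay on both sides of EV. The log2 change was 0.01, with a 95% interval of -0.21 to 0.23 (limma, adjusted p = 0.977). Without miR-424 replicate 3 the log2 change was 0.12 (limma, adjusted p = 0.00313), and without replicate 1 or 2 it was -0.05.

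SDC2 and SDC3 did not pass. SDC2, the syndecan of mesenchymal cells, was at 8.35, 8.35 and 8.09 FPKM in the EV group and at 6.33, 6.71 and 4.76 FPKM in miR-424 cells (log2 change -0.43, 95% interval -0.68 to -0.17; limma, adjusted p = 0.0602). The miR-424 libraries were all lower, with replicate 3 the lowest. SDC2 passed without replicate 3 (log2 change -0.30; limma, adjusted p = 0.00119), with the GC trend removed (0.0249) and with either other scaling of the libraries (0.0442 and 0.0429). SDC3 was lower in each miR-424 library, at 10.9 ± 0.263 FPKM in EV cells against 9.37 ± 0.841 FPKM (SD, n = 3), and its 95% interval was -0.36 to -0.05 (log2). As a share of summed syndecan FPKM, SDC1 was 21.4%, 20.7% and 21.4% in EV and 15.5%, 15.1% and 18.7% in miR-424 libraries. SDC4 made up 73.1%, 73.9% and 73.1% and 79.8%, 80.2% and 76.8%.

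Glypicans are tethered to the membrane by a lipid anchor. GPC1 (chromosome 2, 241375115 to 241407495), the main glypican here, was at 58.3, 56.1 and 56.5 FPKM in EV libraries and at 44.8, 43.4 and 46.3 FPKM in miR-424 cells. No miR-424 library reached the lowest EV library, and the mean fell by 21.3% (log2 change -0.34 ± 0.04, SE; limma, adjusted p = 0.00702). The GPC1 transcript is rich in GC (66.7%), and the change was smaller with the GC trend removed (log2 change -0.27, and -0.23 also without miR-424 replicate 3). The call was lost by a small margin without EV replicate 1, 2 or 3 (limma, adjusted p = 0.0581, 0.0559 and 0.0556). The loci MIR149 and PP14571 overlap GPC1, at means of 0 and 0.0433 FPKM in EV cells. GPC6 was at 5.30, 5.39 and 5.26 FPKM with EV and at 5.05, 4.94 and 3.96 FPKM in miR-424 cells, all lower, and did not pass (limma, adjusted p = 0.277). GPC1 made up 90.5% ± 0.22 of glypican FPKM in EV and 89.6% ± 1.41 in miR-424 cells (SD, n = 3).

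HSPG2 encodes perlecan and AGRN encodes agrin, both secreted core proteins of basement membranes, and neither passed. AGRN was at 67.6, 67.0 and 67.5 FPKM in the EV group and at 73.6, 71.2 and 80.6 FPKM in miR-424 cells (log2 change 0.15, 95% interval 0.03 to 0.28; limma, adjusted p = 0.133). HSPG2 was at 29.9, 30.1 and 30.6 FPKM in EV libraries and at 25.4, 25.1 and 28.4 FPKM in miR-424 cells (log2 change -0.19, 95% interval -0.32 to -0.06; limma, adjusted p = 0.0856). For each gene the groups did not overlap, AGRN being higher and HSPG2 lower, and replicate 3 was the highest miR-424 library for both. The ratio of AGRN to HSPG2 was 2.26, 2.22 and 2.21 in EV and 2.90, 2.83 and 2.83 in miR-424 libraries, replicate 3 lying with the others. Both transcripts are rich in GC (67.5% and 64.5%), and with the GC trend removed AGRN was higher (limma, adjusted p = 0.00548) and HSPG2 lower (0.037).

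Summed over all core proteins of the set other than SDC4, FPKM was 254 ± 2.09 in EV and 220 ± 6.20 in miR-424 cells (SD, n = 3), lower in each miR-424 library. With SDC4 included it was 509, 511 and 509 against 498, 493 and 447. Most of the difference without SDC4 lay in SDC1 (means of 73.9 and 53.4 FPKM) and GPC1 (57.0 and 44.8 FPKM), the genes already called. AGRN, also in the sum, was higher in miR-424 cells. In bulk RNA, fewer cells of a type and less RNA per cell cannot be told apart. Some lineage markers also differed between the groups, not all in 1 direction within a list. The summed FPKM of 5 basal mammary markers was 84.5 to 90.1 in EV and 58.2 to 69.5 in miR-424 libraries; KRT5 and ITGB4 fell, KRT14 rose, KRT17 did not pass and TP63 was under 1 FPKM. The sum of 3 mesenchymal markers was 1249 to 1275 and 1416 to 1499 FPKM, where FN1 rose and VIM and CDH2 did not pass. Sums of epithelial markers (249 to 259 and 239 to 261 FPKM) and of leukocyte markers (54.9 to 57.6 and 53.0 to 58.8) overlapped between groups. Sums of 6 fibroblast markers also overlapped (156 to 166 and 164 to 185 FPKM), while COL1A1 rose from 39.0 ± 1.49 to 45.2 ± 1.66 FPKM (SD, n = 3; limma, adjusted p = 0.0456). The calls of KRT5 and FN1 held in all 16 alternative settings. ITGB4 kept its call in 14 of 16, KRT14 in 11 of 15 and COL1A1 in 8 of 16. The part of the basal, mesenchymal and fibroblast markers in the changes of SDC1, GPC1 and the sulfatases was not tested.

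**Figure D4:**
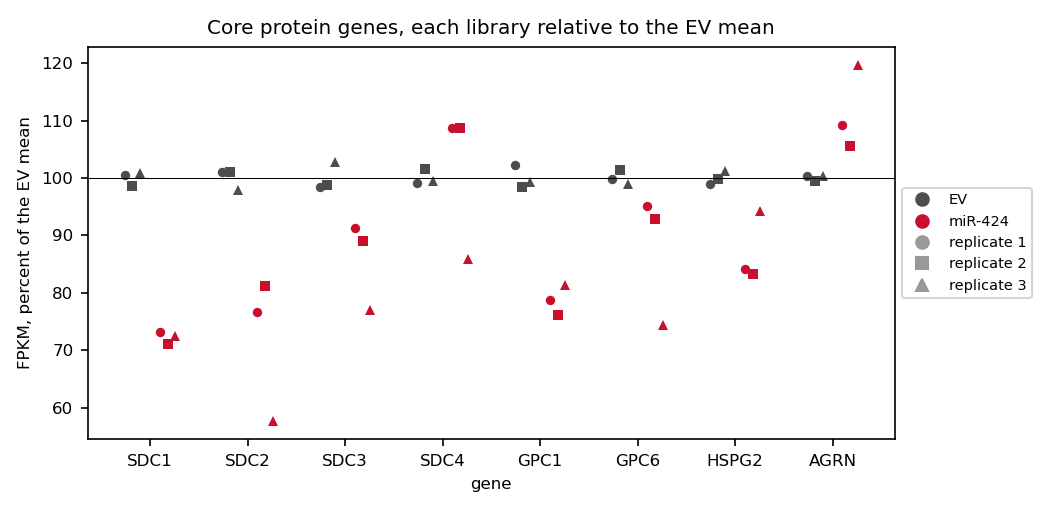
FPKM of the 8 tested core protein genes as a percentage of each gene's EV mean (y axis, which does not start at 0), for EV (grey) and miR-424 (red) libraries, with a symbol for each replicate number. SDC1 lies between 71.2% and 73.1% in the miR-424 libraries and GPC1 between 76.1% and 81.3%, whereas replicate 3 (triangles) is set apart for SDC2 (57.7%), SDC4 (85.9%) and GPC6 (74.4%).

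Of the polymerases, EXT2 fell and EXT1 did not pass. EXT1 and EXT2 work as a complex that adds both sugars of the repeat in turn. EXT2 (chromosome 11, 44117099 to 44266980) was at 25.6, 25.2 and 25.1 FPKM with EV and at 22.2, 22.3 and 20.9 FPKM in miR-424 cells, without overlap, which is 86.1% of the EV mean (log2 change -0.21 ± 0.04, SE; limma, adjusted p = 0.0312). It is the weakest of the 5 calls: leaving out any single EV library, or miR-424 replicate 1 or 2, ended it (limma, adjusted p = 0.0676 to 0.156). EXT1 was at 24.9, 25.7 and 26.1 FPKM in the EV group and at 28.0, 26.7 and 26.4 FPKM in miR-424 cells (log2 change 0.08, 95% interval -0.02 to 0.18; limma, adjusted p = 0.325). The ratio of EXT1 to EXT2 was 0.972, 1.02 and 1.04 in EV and 1.26, 1.20 and 1.26 in miR-424 libraries, so transcripts that were level in EV cells were uneven in miR-424 cells.

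EXTL3, which starts the heparan sulfate chain on the linkage sugar, was at 14.2 ± 0.151 and 14.0 ± 0.170 FPKM (SD, n = 3). Its log2 change had a 95% interval of -0.11 to 0.06. EXTL2, another transferase of the family, was at 9.05, 8.51 and 7.82 FPKM in EV libraries and at 10.1, 10.4 and 7.23 FPKM in miR-424 cells. Replicates 1 and 2 were above and replicate 3 below the EV libraries, so no direction can be given for EXTL2 with all libraries (limma, adjusted p = 0.709).

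The 5 tested linkage region genes did not pass, and 0 of them had an unadjusted p under 0.05 (limma). FAM20B, a kinase that phosphorylates the xylose and the most abundant of them, was at 18.4, 19.2 and 20.0 FPKM in EV cells and at 20.7, 21.7 and 18.5 FPKM in miR-424 cells. B3GAT3, which adds the closing glucuronic acid, was at 19.5 ± 0.338 and 19.8 ± 1.49 FPKM in EV and miR-424 cells (SD, n = 3). XYLT2, which attaches xylose to the core protein and is the only xylosyltransferase gene above 1 FPKM here, was at 10.7 ± 0.619 and 11.6 ± 0.322 FPKM. B3GALT6, which adds the second galactose, was at 11.1, 11.1 and 11.1 FPKM with EV and at 11.0, 10.9 and 11.1 FPKM in miR-424 cells, with a 95% interval of -0.10 to 0.07 (log2). B4GALT7, which adds the first galactose, was at 8.17 ± 0.194 and 8.87 ± 1.08 FPKM. In all 5 the groups overlapped.

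Enzymes that modify the chain inside the cell did not pass either, 7 genes in all, of which NDST1 and HS6ST1 had an unadjusted p under 0.05 (limma). NDST1, which replaces acetyl groups by sulfate and so sets where later sulfate is added, was at 17.7, 17.6 and 17.5 FPKM in the EV group and at 16.8, 15.8 and 15.6 FPKM in miR-424 cells (limma, adjusted p = 0.131). The groups did not overlap, the miR-424 libraries being lower. NDST2 was at 3.19 ± 0.153 and 3.12 ± 0.120 FPKM (SD, n = 3). HS6ST1, which adds the 6-O-sulfate that the SULF enzymes remove, was the only 6-O-sulfotransferase gene above 1 FPKM. It was at 6.78, 6.59 and 7.03 FPKM in EV libraries and at 5.93, 5.63 and 6.40 FPKM in miR-424 cells, lower in each (log2 change -0.16, 95% interval -0.29 to -0.03; limma, adjusted p = 0.139). Without miR-424 replicate 3 it passed, also with the GC trend removed as well (limma, adjusted p = 0.00766 and 0.0425).

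HS2ST1, the 2-O-sulfotransferase gene, was at 8.10, 8.01 and 8.36 FPKM with EV and at 9.98, 10.3 and 7.57 FPKM in miR-424 cells. Replicates 1 and 2 were higher and replicate 3 lower than EV (limma, adjusted p = 0.432), and without replicate 3 HS2ST1 was higher (log2 change 0.28; limma, adjusted p = 0.00104). GLCE, the epimerase gene, was at 3.12 ± 0.240 and 2.82 ± 0.298 FPKM (SD, n = 3). The 3-O-sulfotransferase genes HS3ST3A1 and HS3ST3B1 encode enzymes with nearly the same catalytic domain, so reads may be split between them uncertainly. HS3ST3A1 was at 20.4, 20.4 and 20.2 FPKM in the EV group and at 20.9, 20.2 and 17.9 FPKM in miR-424 cells. HS3ST3B1 was at 5.62, 5.77 and 5.49 FPKM and at 6.13, 6.23 and 5.82 FPKM (limma, adjusted p = 0.673 and 0.279). HS3ST3B1 was thus higher in each miR-424 library and did not pass. The locus MGC12916 overlaps HS3ST3B1, at a mean of 1.39 FPKM in EV cells.

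PAPSS1 and PAPSS2 make PAPS, the sulfate donor for the sulfotransferases among these enzymes. PAPSS1 was at 15.1, 14.8 and 13.9 FPKM in EV libraries and at 16.6, 16.6 and 15.5 FPKM in miR-424 cells, higher without overlap (log2 change 0.14, 95% interval 0.02 to 0.26; limma, adjusted p = 0.143). PAPSS2 was at 4.90 ± 0.151 and 5.40 ± 0.445 FPKM (SD, n = 3; limma, adjusted p = 0.318). Both passed without replicate 3, with and without removal of the GC trend, and PAPSS1 was also called with either scaling between libraries.

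**Figure D5:**
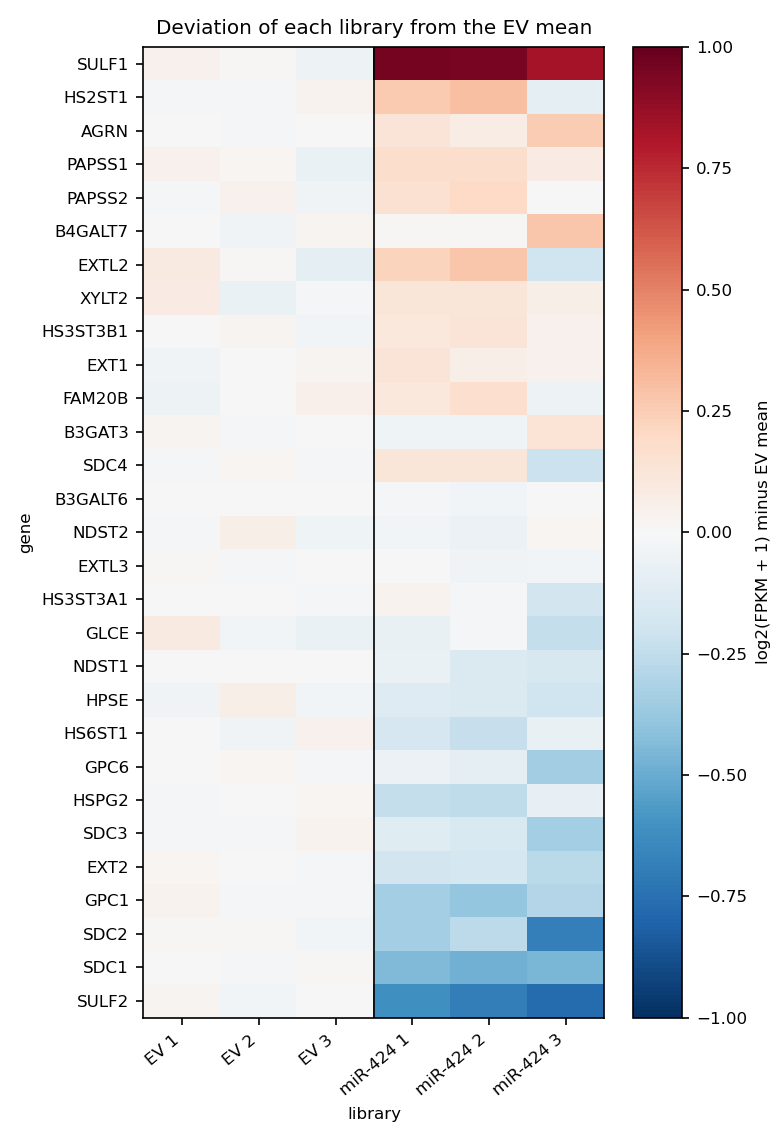
Difference of log2(FPKM + 1) from the EV mean for the 29 tested genes (rows, ordered by their change) in each of the 6 libraries (columns); red is higher and blue lower. The miR-424 columns have the same colour for SULF1, SULF2, SDC1, GPC1 and EXT2, whereas replicate 3 differs in sign from replicates 1 and 2 for HS2ST1, EXTL2, FAM20B, SDC4, B3GAT3 and NDST2.

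Other genes of the pathway were taken as lists with 58 tested genes, 14 of which passed, where 7.56% of all tested loci did; without miR-424 replicate 3 the shares of all tested loci were 14.9% for rises and 22.2% for falls. CXCR4 kept its call in every alternative setting and the other 13 lost it when EV replicate 1, 2 or 3 was left out. Of 15 tested genes that supply sugar nucleotides and carry sulfate or PAPS, 1 rose and 2 fell (7 and 3 without miR-424 replicate 3). The rise and 1 fall were a pair of isoenzymes of the first step towards UDP-N-acetylglucosamine. GFPT2 rose from 12.6 ± 0.366 to 16.8 ± 0.726 FPKM and GFPT1 fell from 15.5 ± 0.557 to 12.2 ± 0.905 FPKM (SD, n = 3; limma, adjusted p = 0.00736 and 0.0277). SLC35B2, which carries PAPS into the Golgi and shares its locus with MIR4647, fell from 72.8 ± 1.06 to 64.4 ± 0.738 FPKM (limma, adjusted p = 0.0286).

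In the chondroitin and dermatan sulfate branch, which starts from the same linkage sugar, 2 of 14 tested genes fell and 0 rose (6 and 5 without miR-424 replicate 3). Both encode chondroitin 6-O-sulfotransferases. CHST7 fell from 6.12 ± 0.127 to 4.07 ± 0.335 FPKM and CHST3 from 16.9 ± 0.336 to 14.0 ± 0.220 FPKM (SD, n = 3; limma, adjusted p = 0.00687 and 0.0135). Of 8 tested enzymes that degrade heparan sulfate in lysosomes, 0 passed (limma; 2 had an unadjusted p under 0.05, and 3 rose and 2 fell without replicate 3). Of 5 tested genes in a list of part-time core proteins and further enzymes, TGFBR3, the gene of betaglycan, fell from 2.16 ± 0.0666 to 1.50 ± 0.204 FPKM (limma, adjusted p = 0.0312).

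Among 10 tested ligands that bind heparan sulfate and their receptors, 1 rose and 3 fell (5 and 4 without miR-424 replicate 3). VEGFA, whose longer forms bind the chains, rose from 22.4 ± 0.836 to 32.7 ± 2.69 FPKM. MDK, a heparin-binding growth factor, fell from 32.3 ± 0.684 to 25.4 ± 1.76 FPKM (SD, n = 3; limma, adjusted p = 0.00817 and 0.0188). CXCR4, the receptor of a chemokine that binds the chains, fell from 11.2 ± 0.554 to 4.27 ± 0.239 FPKM (limma, adjusted p = 0.000668), and PDGFA also fell. Of 6 tested genes of shedding proteases and their control, 2 rose and 2 fell (the same counts without replicate 3). FURIN, a proprotein convertase that also cleaves SULF precursors, fell from 19.3 ± 0.401 to 15.7 ± 0.358 FPKM, and TIMP3, an inhibitor of metalloproteinases held in the matrix by sulfated sugars, from 5.68 ± 0.357 to 4.48 ± 0.151 FPKM (limma, adjusted p = 0.0108 and 0.028). MMP2 rose from 66.5 ± 1.15 to 78.1 ± 2.44 FPKM (SD, n = 3; limma, adjusted p = 0.0197), and MMP14, a membrane metalloproteinase, also rose.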

How the data were processed

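The authors deposited 1 table of FPKM values with 1 column per sample; per the submitters' processing notes, where no role is stated, the tools were Cuffdiff, Cufflinks 1.3.0 and TopHat 1.4.1 and the build was GRCh37 (hg19). No source used here gives the annotation, use of strand, read numbers or library scaling. Columns and replicate numbers were matched by sample title. FPKM gives no fragment counts, so no test of counts was made; steps in low values put depth at about 0.779 to 1.06 of EV replicate 1, with 3.98% to 12.4% of low loci within 0.03 (log2) of the step. Locus starts counted from 0 (341 microRNA loci had the hairpin's length, 5 were one short) and are printed 1-based.

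Values were transformed to log2(FPKM + 1) and the 11574 loci whose mean reached 1 FPKM were tested with limma 3.58.1 (R 4.3.3). Settings were trended prior variance, two-sided, Benjamini-Hochberg adjustment, threshold 0.05. The code of the fit was run on simulated data with independent noise, no outlying library and no GC trend. That run therefore cannot show how the fit behaves with miR-424 replicate 3 or the GC trend. Named genes were all 41 members, and for other lists up to 3 genes, by smallest adjusted p among those called (PDGFA and MMP14 complete small counts). Members and lists were chosen with earlier results of these data known. Alternatives were other pseudocounts, filters, scalings, variance priors, sample weights, a replicate block, removal of the GC trend by loess, and leaving out each library. Leaving out miR-424 replicate 3 with the GC trend removed was chosen after seeing the data. GC content came from GENCODE 29 transcripts for 98.6% of tested loci. Gene length and library scaling act on every FPKM value, and reads of overlapping genes may not be told apart.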

Additional observations from a re-analysis of the deposited data

How the results depend on the processing

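SULF1, SULF2 and SDC1 kept direction and call in every setting that tested them. EXT2 and GPC1 kept their direction and lost the call in 6 and 3 of 16 settings. Of 458 values of single genes under alternatives, 380 kept direction and side of the threshold, 9 lost and 49 gained a call and 20 changed sign. The heparan sulfate genes numbered 0 rises and 3 falls at a minimum mean of 5 FPKM, where SULF1 and SULF2 are not tested, 2 and 5 under median-of-ratios scaling or quantile normalization, 8 and 10 with sample quality weights (0.0779 for miR-424 replicate 3, the other libraries above 1) and 2 and 7 with the GC trend removed. Leaving out 1 library gave 1 to 9 rises and 2 to 10 falls. Leaving out miR-424 replicate 3 with the GC trend removed gave 12 and 9, and 1274 and 2152 over all loci; the cause was not tested. Over all loci, 144 rises and 731 falls became 308 and 495 under median-of-ratios scaling, 315 and 449 after quantile normalization, 1256 and 2307 with sample quality weights, 232 and 918 with the GC trend removed, 107 and 468 at a minimum of 5 FPKM, and 31 to 1728 and 77 to 2574 without 1 library. These counts were 31 to 35 and 77 to 84 when EV replicate 1, 2 or 3 was dropped, 63 and 280 for miR-424 replicate 1, 83 and 365 for replicate 2, and 1728 and 2574 for replicate 3.

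Whether same-numbered libraries pair was not settled. The correlations of their deviations from the group means were 0.0509, 0.152 and 0.127 for numbers 1, 2 and 3. For numbers 2 and 3 these were the highest that either library had with the other group. EV replicate 1 correlated more with miR-424 replicate 2 (0.0613), while miR-424 replicate 1 correlated most with EV replicate 1. With the replicate block, 79 loci rose and 270 fell, among them 1 and 3 heparan sulfate genes; EXT2 then missed the threshold (limma, adjusted p = 0.0866).

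The log2 changes that changed sign were of genes that did not pass with all libraries. Median-of-ratios scaling gave B3GALT6 0.039, EXTL3 0.030, NDST2 0.022 and HS3ST3A1 0.0016, and quantile normalization gave B3GALT6 0.036, EXTL3 0.031 and NDST2 0.052. With sample quality weights B3GAT3 was -0.031 and HS3ST3A1 0.0054, and with the GC trend removed B3GALT6 was 0.041 and SDC4 -0.0031. Without miR-424 replicate 3 and with the GC trend removed, B3GALT6 was 0.091, EXTL3 0.028, NDST2 0.0058 and HS3ST3A1 0.10; B3GALT6 and HS3ST3A1 were called higher there (limma, adjusted p = 0.0375 and 0.0189). Leaving out 1 library at a time gave -0.042 to 0.047 for B3GAT3, -0.045 to 0.0070 for NDST2, -0.096 to 0.011 for HS3ST3A1 and -0.049 to 0.12 for SDC4.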
